A study of Homo sapiens with 2 samples.

Results

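SFRP1, SFRP2, SFRP4, FRZB, NOTUM, SOSTDC1, SHISA3 and APCDD1 encode inhibitors that act on Wnt proteins or their receptors outside or at the surface of the cell. These 8 genes were found by gene symbol in the annotation of the array, and each had 1 probe set. They were chosen for their role, by a choice made with earlier results of these data known. They make up 8 of 14884 genes with a named probe set and 8 of 16098 named probe sets. Their transcripts were measured in BE(2)-C, an established human neuroblastoma cell line that the labels describe as MYCN-amplified. One culture had received control siRNA and the other linc00467 siRNA, which the study's methods call linc00467 siRNA-1, and RNA was taken from both 48 hours later. An Affymetrix HuGene-2_0-st array was used for each RNA, 1 per condition, so neither condition had a replicate. The study asked which genes lie downstream of the long noncoding RNA linc00467.

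Wnt proteins are secreted, lipid-modified signals that bind Frizzled receptors and the co-receptors LRP5 and LRP6, and thereby keep beta-catenin from being degraded. Inhibitors interrupt this at different points. Secreted Frizzled-related proteins (SFRPs) carry a cysteine-rich domain like that of Frizzled and bind Wnt proteins, NOTUM removes the lipid that Wnt needs, SOSTDC1 binds the co-receptors, and SHISA3 and APCDD1 act on the receptor side. Wnt signalling guides neural crest cells, from which neuroblastoma arises, and several of these inhibitors are themselves switched on by Wnt or switched off in tumours.

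The targeted RNA, LINC00467 (probe set 16677153, chromosome 1), measured 6.55 on the control siRNA array and 5.67 on the linc00467 siRNA array on the log2 scale, which is 0.543 times the control signal. The sample description of the linc00467 siRNA culture calls the target lncMycN, and the labels and the methods name different culture media. Of 20 listed markers of adrenergic neuroblastoma cells, 15 had a named probe set, with levels from 6.52 to 11.91 with control siRNA and from 6.41 to 11.86 with linc00467 siRNA. Past 1.2 fold, 3 of the 15 were lower and 1 was higher, beside 9.72% and 8.56% of all genes. The median log2 difference of the 15 was -0.16. CHGA, a granule protein gene, was lowest at -0.58, and ISL1 was the higher one at 0.29. Measured markers of blood cells (2 of 6) and endothelial cells (3 of 5) stayed between 2.68 and 4.62 on both arrays, and those of Schwann cells (3 of 6) lay between 4.62 and 6.13. The 7 measured mesenchymal markers ranged from 4.02 to 8.14 with control siRNA and from 3.61 to 9.70 with linc00467 siRNA. Past 1.2 fold, LUM was higher and DCN lower, where 8.56% of all genes were higher and 9.72% lower. LUM went from 8.14 to 9.70, or by 1.56 on the log2 scale. DCN had -0.40, from 4.02 to 3.61, which is within the range of the gene families taken as silent below. LUM and DCN both encode proteoglycans of the extracellular matrix. The part of either marker list in the differences given here was not tested.

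As a gauge of background, the 87 named probe sets of olfactory receptor, keratin-associated protein, bitter taste receptor and beta-defensin genes were taken as silent. Their median log2 level was 3.67 in the control culture and 3.74 after linc00467 siRNA, and their 95th percentiles were 6.40 and 6.37. SFRP1, SOSTDC1 and SHISA3 lay above these percentiles on both arrays, whereas SFRP2, SFRP4, FRZB, NOTUM and APCDD1 lay within the range of the silent families. A low level on an array cannot be told apart from background in this way, and levels of different probe sets were not ranked against each other, because probes differ in how well they bind.

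**Figure D1:**
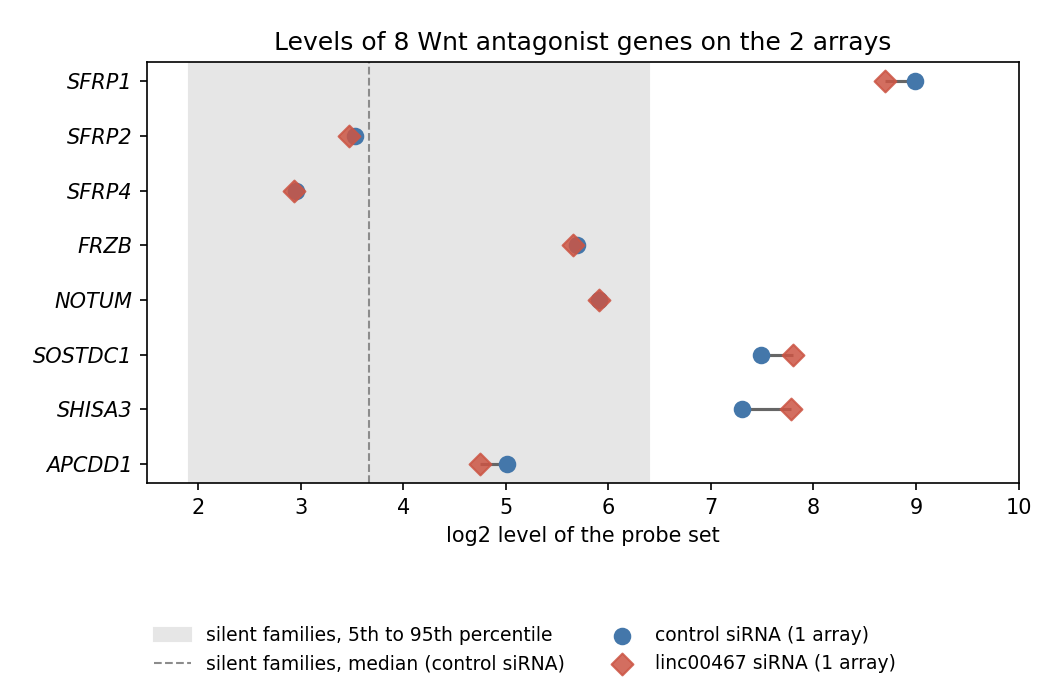
Log2 level of the probe set of each of the 8 Wnt antagonist genes (x axis) with control siRNA (circles, 1 array) and linc00467 siRNA (diamonds, 1 array). The grey band spans the 5th to 95th percentiles of 87 probe sets of silent gene families, and the dashed line is their median with control siRNA. SFRP1, SOSTDC1 and SHISA3 sit to the right of the band.

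Among the 4 genes of secreted Frizzled-related proteins, SFRP1 was lower with linc00467 siRNA and the other 3 differed little. SFRP1, which encodes a Wnt-binding inhibitor often silenced in tumours, went from a log2 level of 8.99 (probe set 17076609, chromosome 8) in the control culture to 8.70 after linc00467 siRNA. It was thus 1.22 fold lower, a log2 difference of -0.29. No silent-family probe set was as high on either array. Of the 500 named probe sets closest to SFRP1 in mean level, 69 were lower by as much or more, and their differences had a robust SD of 0.23. The SFRP1 difference was therefore of a size that many probe sets of like level showed between these 2 arrays.

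SFRP2 (probe set 16980762, chromosome 4) had levels of 3.53 and 3.47, a log2 difference of -0.06. SFRP4 (probe set 17056791, chromosome 7) had levels of 2.95 and 2.94, a log2 difference of -0.01. These levels lay below the median of the silent families on both arrays, and 49 and 62 of the 87 silent probe sets were above SFRP2 and SFRP4 with control siRNA. FRZB, also known as SFRP3 and first studied in cartilage and in the Xenopus embryo, had 5.69 and 5.66 (probe set 16906175, chromosome 2), a log2 difference of -0.04. For FRZB, 8 silent probe sets were higher with control siRNA and 11 with linc00467 siRNA. At these levels the arrays give little information on whether the 3 transcripts were present. SFRP5, the remaining gene of the family, which was outside the 8, had the same value of 5.44 on both arrays.

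NOTUM encodes a secreted carboxylesterase that removes the palmitoleate group of Wnt proteins and is a feedback inhibitor induced by beta-catenin. Its probe set (16850047, chromosome 17) stood at 5.91 on the log2 scale with control siRNA and at exactly the same value with linc00467 siRNA. Exactly equal values on both arrays occurred in 22.9% of named probe sets and in 95 of the 500 closest to NOTUM in mean level, so that a difference of 0 does not measure an unchanged transcript. On the control siRNA array 7 silent probe sets were above NOTUM.

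SOSTDC1 was 1.25 fold higher with linc00467 siRNA. It encodes a secreted protein related to sclerostin that binds LRP6 and also binds bone morphogenetic proteins (BMPs), and thus inhibits both pathways. The log2 level of its probe set (17055472, chromosome 7) was 7.49 in the control culture and 7.80 after linc00467 siRNA, a log2 difference of 0.32. On both arrays 1 of the 87 silent probe sets was higher than SOSTDC1. Of the 500 named probe sets nearest in mean level, 40 were higher by as much or more, with a robust SD of 0.18. In either direction, 101 of these 500 differed as far, beside 115 of the 500 around SFRP1. By this count SOSTDC1 and SFRP1 stood at much the same place among probe sets of like level.

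SHISA3 had the largest difference of the 8 genes and was 1.39 fold higher with linc00467 siRNA. Proteins of its family were first described in Xenopus, where Shisa holds Frizzled and fibroblast growth factor receptors back in the endoplasmic reticulum. The SHISA3 probe set (16966422, chromosome 4) measured 7.31 in the control culture and 7.78 after linc00467 siRNA, a log2 difference of 0.47. In its surroundings of 500 named probe sets of similar mean level, 19 were higher by as much or more, and 49 differed as far in either direction. By at least 1.2 fold, 49 were higher, and the robust SD was 0.17. Positive differences in these surroundings reached 1.29.

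APCDD1, the gene of a membrane glycoprotein that binds WNT3A and LRP5, was 1.201 fold lower with linc00467 siRNA. Its level (probe set 16850958, chromosome 18) was 5.02 in the control culture and 4.75 after linc00467 siRNA, a log2 difference of -0.26. Of its 500 neighbours in mean level, 29 were lower by as much or more, and 64 differed as far in either direction. Their robust SD was 0.06, which was narrower than around SFRP1. However, 164 of the 500 had exactly equal values on both arrays, beside 34 around SFRP1, and such ties narrow a robust SD. The ordinary SD was 0.17, beside 0.29 around SFRP1. The level was within the range of the silent families, of which 16 probe sets were higher with control siRNA and 18 with linc00467 siRNA. With the 2 arrays set to the same distribution by quantile normalization, the log2 difference of APCDD1 was -0.258, short of the 0.263 that corresponds to 1.2 fold.

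By at least 1.2 fold, 2 of the 8 genes were higher (SHISA3 and SOSTDC1) and 2 were lower (SFRP1 and APCDD1) with linc00467 siRNA. Over all named probe sets the corresponding shares were 8.50% higher and 9.78% lower. Thus 2 of 8 in each direction, or 25.0%, was above the background in a group too small to set the shares apart. The background also varied with level. Of the 500 probe sets of like level, 78 around SFRP1, 56 around SOSTDC1, 49 around SHISA3 and 29 around APCDD1 were past 1.2 fold in the same direction. By at least 1.8 fold, the cut-off of the study, none of the 8 genes differed, where 0.224% of named probe sets were higher and 0.578% lower. None was past 1.5 fold either. The median log2 difference of the 8 genes was -0.03, beside 0.00 over all named probe sets. The differences of the 8 inhibitors were thus of both signs, and with 1 array per condition no test of any difference could be made. A difference caused by loss of linc00467, another effect of this siRNA and a difference between the 2 cultures or hybridizations cannot be told apart.

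**Figure D2:**
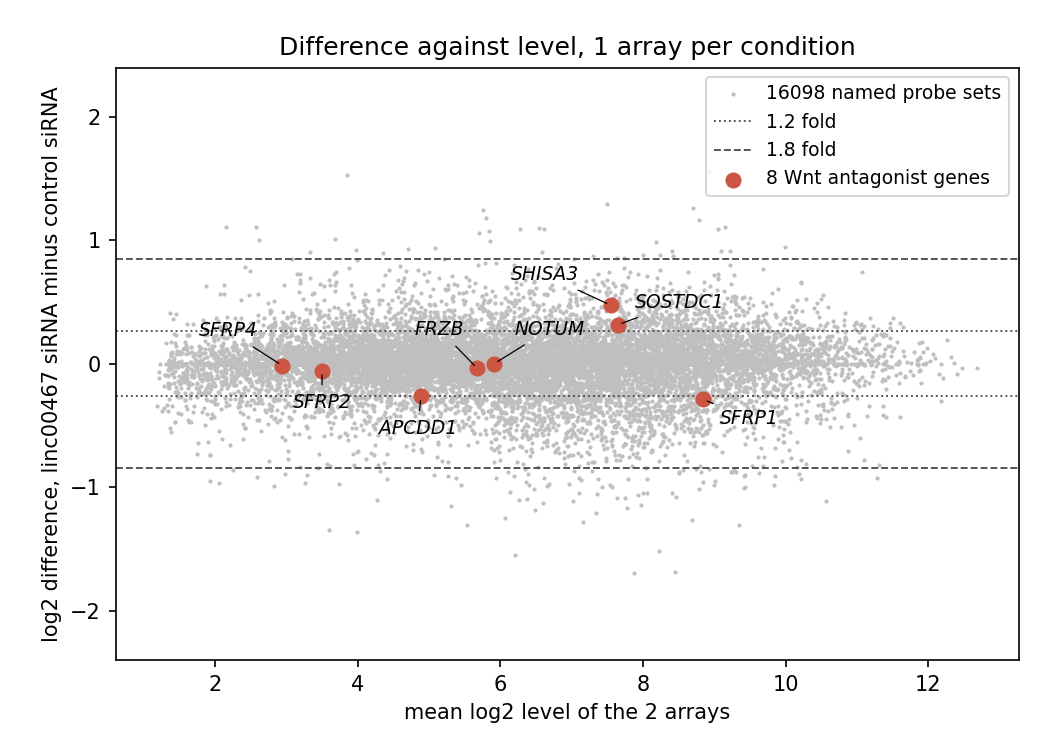
Log2 difference, linc00467 siRNA minus control siRNA (y axis), against the mean log2 level of the 2 arrays (x axis), for 16098 named probe sets (grey) and the 8 Wnt antagonist genes (red). Dotted and dashed lines mark 1.2 fold and 1.8 fold. SHISA3 and SOSTDC1 lie above the upper dotted line, SFRP1 and APCDD1 on or just below the lower one, and all 8 lie between the dashed lines.

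**Figure D3:**
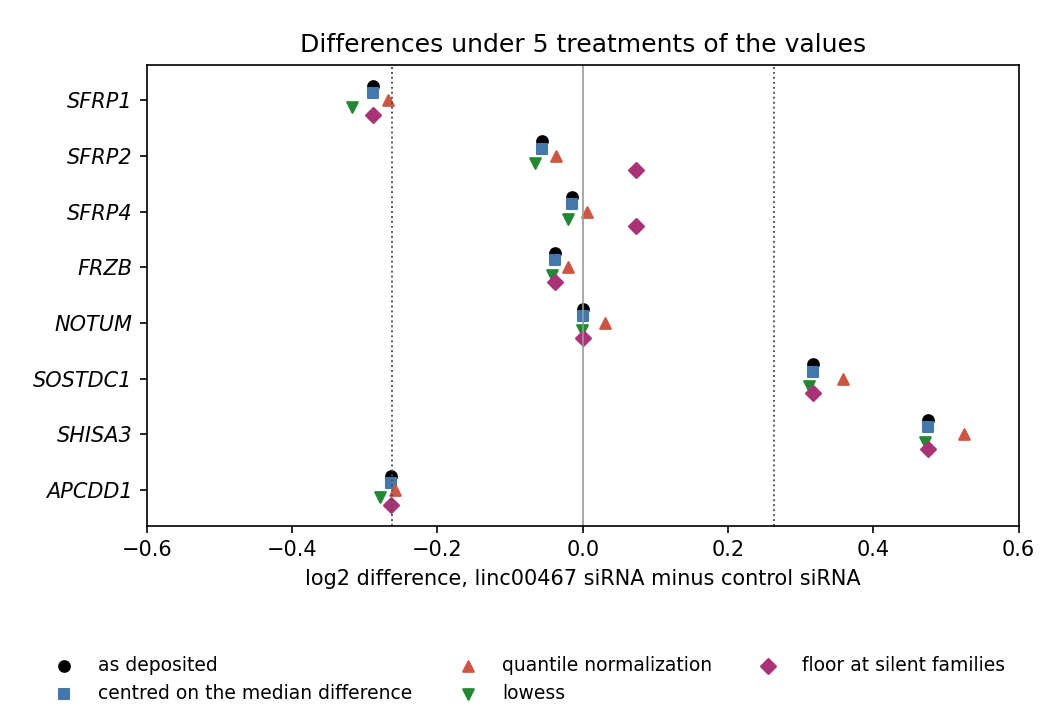
Log2 difference of each of the 8 genes (x axis) as deposited and under 4 other treatments of the same 2 arrays, with dotted lines at 1.2 fold. Median centring left every difference as deposited. SHISA3 stays between 0.47 and 0.53 and SOSTDC1 between 0.31 and 0.36, whereas APCDD1 straddles the line.

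Promoter sequences were held for 5 of the 8 genes in the RefSeq table of build GRCh38.p14, namely SFRP2, SFRP4, FRZB, SHISA3 and APCDD1. The 250 bases before the transcription start of SHISA3 and APCDD1 are shown, because these are the genes with such a sequence that differed by at least 1.2 fold, in opposite directions. The SHISA3 stretch is chr4:42397238-42397487 and the APCDD1 stretch is chr18:10454385-10454634, both on the plus strand. Capitals mark the letters GGGCGG, or CCGCCC for the opposite strand, the core of the GC box that Sp1 binds and the motif class that the study examined at the linc00467 promoter.
SHISA3: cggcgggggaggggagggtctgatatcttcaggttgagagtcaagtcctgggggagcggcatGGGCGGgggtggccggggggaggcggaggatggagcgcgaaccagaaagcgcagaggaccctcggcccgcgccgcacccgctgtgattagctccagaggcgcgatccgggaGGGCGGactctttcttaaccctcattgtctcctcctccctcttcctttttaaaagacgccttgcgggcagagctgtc
APCDD1: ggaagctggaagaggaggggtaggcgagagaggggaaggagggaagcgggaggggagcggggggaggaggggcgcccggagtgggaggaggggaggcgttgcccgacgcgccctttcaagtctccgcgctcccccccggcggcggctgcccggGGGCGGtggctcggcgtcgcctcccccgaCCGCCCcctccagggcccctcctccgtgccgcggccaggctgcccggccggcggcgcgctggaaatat

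The SHISA3 stretch held 2 such motifs, beginning 188 and 77 bases before the start, and the APCDD1 stretch held 2, beginning 97 and 68 bases before it, the latter on the opposite strand. FRZB held 2, while SFRP2 and SFRP4 held 1 each. All 5 promoters thus had at least 1 match, as did 42.3% of the 27305 promoters of this length in the table. The genes with a match included SHISA3, which was higher, APCDD1, which was lower, and SFRP2 and SFRP4, which lay below the median of the silent families. The G and C content was 64.8% for SHISA3, 77.2% for APCDD1, 57.6% for SFRP2, 64.4% for SFRP4 and 55.6% for FRZB, beside a median of 58.0% over all promoters. On either strand, the letters CTTTGAT and CTTTGAA, which TCF/LEF factors of the Wnt pathway bind, were in none of the 5 windows, and in 2.28% and 3.88% of all promoters. The E-box CACGTG, bound by Myc proteins, was also in none of the 5, and was in 6.49% of all promoters. A match of letters is a description of the sequence and no measure of binding.

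Among 16 measured genes of other extracellular or membrane inhibitors of Wnt, 2 were higher by 1.2 fold or more, 0 were lower by that much, and the median log2 difference was 0.03. Over all 14884 genes 8.56% were higher and 9.72% lower by that fold, with a median of 0.00. DKK1, which encodes an LRP6-binding antagonist and which the study followed up, measured 7.56 in the control culture and 8.44 after linc00467 siRNA, a log2 difference of 0.88. TPBG, which encodes a membrane glycoprotein that dampens Wnt/beta-catenin signalling, had 0.33 at the low levels of 3.99 and 4.32. On these arrays SHISA3 and SOSTDC1 were thus higher by less than DKK1.
Of 12 measured intracellular inhibitors, 3 were past 1.2 fold, all higher, beside 8.56% of all genes, and the median was 0.07. GSK3B, a kinase that marks beta-catenin for degradation, had a log2 difference of 0.30, and CXXC4, whose product binds Dishevelled, also had 0.30. The scaffold gene AXIN1 had 0.26, just past 1.2 fold, and was named to complete the count.

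The targets of these inhibitors were measured in part. Of 19 Wnt ligand genes only WNT2 had a named probe set, with levels of 4.41 and 4.56, so that the ligands that SFRPs and NOTUM act on were largely not analysed here. All 19 listed receptor and co-receptor genes were measured, with a median of 0.00. Past 1.2 fold, 3 were higher and 2 lower, beside 8.56% and 9.72% of all genes. The Frizzled gene FZD3 measured 9.91 in the control culture and 8.90 after linc00467 siRNA, a log2 difference of -1.01. The R-spondin receptor gene LGR5 had -0.75, while the Frizzled genes FZD7 and FZD1 each had 0.34. LRP5 and LRP6, the co-receptors that SOSTDC1 and APCDD1 address, had log2 differences of -0.19 and 0.16. Of 7 measured genes of Wnt export and glypicans, the heparan sulphate proteoglycans that NOTUM associates with, GPC6 was higher by at least 1.2 fold with 0.31. None was lower by that fold, beside 8.56% higher and 9.72% lower over all genes.
The output of the pathway was read from 23 measured genes known as targets of beta-catenin, with a median log2 difference of 0.01. Past 1.2 fold, 4 were higher and 3 lower, beside 8.56% and 9.72% of all genes. DKK1 and FZD7, which also stand in the lists above, were the 2 with the largest positive differences. LGR5 and the transcription factor gene SOX9 had the largest negative ones, with SOX9 at -0.51. AXIN2, the feedback inhibitor commonly read as a gauge of this pathway, had 5.04 and 5.08, a log2 difference of 0.04. Both levels lay within the range of the silent families, so that this small difference does not measure an unchanged output. The median level of the 23 genes, 5.77 with control siRNA and 5.82 with linc00467 siRNA, was also within that range.

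SOSTDC1 also inhibits BMPs. Of 12 measured BMP ligand and receptor genes, all of them ligands, the 1 past 1.2 fold was BMP8B, higher with 0.48 at levels of 4.19 and 4.67. None of the 10 measured genes of other BMP antagonists was past 1.2 fold, and their differences ran from -0.08 to 0.15. Over all genes 8.56% were higher and 9.72% lower by that fold. The median level of the 10 genes, 4.93 with control siRNA and 4.92 with linc00467 siRNA, lay within the range of the silent families. For 3 of the 10 the values on both arrays were exactly equal. Of 4 measured BMP target genes the inhibitory SMAD6 had 0.41 and the other 3 were within 1.2 fold. For SHISA3, 11 genes of the Shisa family and of fibroblast growth factor receptors were measured, with a median of 0.08. FGFR2 and FGFR4 were higher past 1.2 fold, with 0.38 and 0.30, and 0 were lower past it. Both lay within the range of the silent families, FGFR2 at 4.31 and 4.68 and FGFR4 at 5.05 and 5.35.

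**Figure D4:**
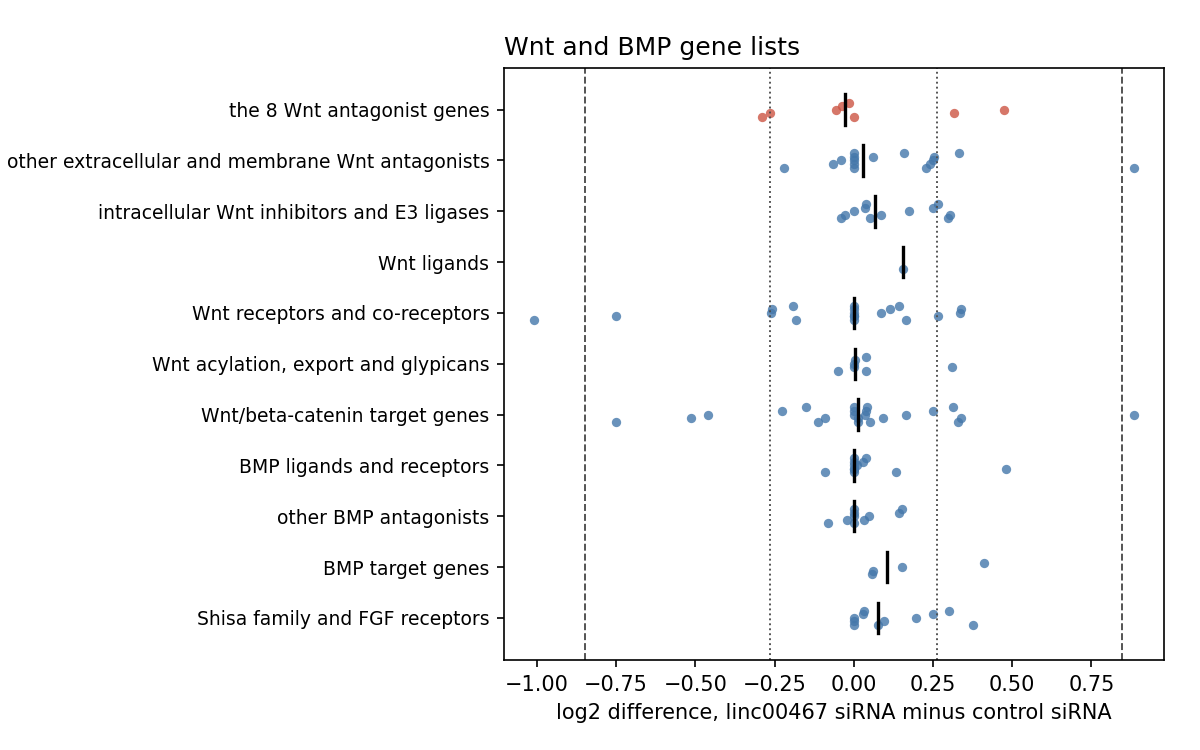
Log2 difference, linc00467 siRNA minus control siRNA (x axis), of each measured gene in the 8 Wnt antagonists (red) and in 10 lists of related genes (blue). Black bars are medians, and dotted and dashed lines mark 1.2 fold and 1.8 fold. DKK1, drawn in 2 lists, and FZD3 are the genes beyond the dashed lines.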

How the data were processed

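For each array the deposited file holds log2 levels of probe sets, as processed by the authors. MAS5 is named in the submitters' processing notes, whereas R with Bioconductor packages is named in the methods. Normalization, software versions and array build were all not given in the sources used here. Beyond this nothing was rescaled, and differences are linc00467 siRNA minus control siRNA. Of 53617 probe sets, 16098 had 1 gene symbol, 0 had several and 37519 are unnamed here. All 16098 matched RefSeq (GRCh38.p14) by gene number.

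With 1 array per condition no test, p-value or replicate error exists, and 2 arrays limit the precision. Spread is described by the 500 named probe sets nearest to each gene in mean level, whose robust SD is the scaled median absolute deviation. The 8 genes and all lists were chosen with earlier results of these data known. Named were the 8 genes, LINC00467, DKK1, chromosome neighbours and, per list, up to 2 genes in each direction past 1.2 fold with the largest differences. SFRP5, AXIN1, AXIN2, WNT2, LRP5 and LRP6 were added after their values were seen, for their roles or to complete counts.

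Alternatives were median centring, quantile normalization, lowess (fraction 0.2), a floor at the silent families' medians (3.67 and 3.74), other folds and a level filter. The code was tested on simulated arrays. Python 3.11.15, numpy 2.4.6, pandas 2.3.3, scipy 1.17.1, statsmodels 0.14.6 and matplotlib 3.10.9 were used.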

Additional observations from a re-analysis of the deposited data

How the results depend on the processing

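The log2 differences of the 8 genes moved by less than the robust SD of probe sets of like level under quantile normalization and lowess correction. Median centring could move nothing, because the median difference of named probe sets was already 0.00. SFRP2 and SFRP4 moved by more when levels were raised to the silent families' median, where both were 0.07, because both levels were replaced by the floor. The other 6 genes lay above the floor on both arrays, so the floor could not move them. The count of genes past 1.2 fold was 4 as deposited and 3 with quantile normalization or with a restriction to genes at or above the median level of 5.68, in each case without APCDD1. The count past 1.8 fold was 0 under every alternative. It was also 0 at 1.5 fold, and therefore at 2 fold. Averaging probe sets or taking the highest could not change a value, since each gene had 1 probe set. The counts in the lists of related genes stayed within 1.5 times the deposited ones under all 4 treatments of the values. Quantile normalization moved the median difference of named probe sets to 0.02. No paired analysis was possible because there was 1 array per condition.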

Other observations

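The nearest measured genes on each side of the 8 inhibitors on their chromosomes were read from the same arrays. A closer protein-coding gene without a named probe set lay between the inhibitor and TCIM, PLRG1, ITPRID2, CENPX, MEOX2, KCTD8, TXNDC2 or PIEZO2. Of the 16 nearest protein-coding genes with a named probe set, 1 on each side of each gene in the GRCh38.p14 gene order, 3 were higher past 1.2 fold, 0 were lower past it, beside 8.56% and 9.72% of all genes, and the median log2 difference was 0.00. TCIM, NME8, MEOX2, LRRC72, TXNDC2 and KCTD8 lay between 2.25 and 3.89, close to or below the level of gene families taken as silent, and TCIM, NME8, MEOX2 and TXNDC2 had equal values on both arrays, so that these neighbours could hardly show a difference. GOLGA7, beside SFRP1, had a log2 difference of 0.28 where SFRP1 had -0.29. EPDR1, beside SFRP4, had 0.45, from 7.47 to 7.92. CENPX, a centromere protein gene and the nearest measured gene on its side of NOTUM, had 0.43, from 10.01 to 10.44. The neighbours of SHISA3 were BEND4 with -0.13 and KCTD8 with 0.10, and those of SOSTDC1 were MEOX2 with 0.00 and LRRC72 with 0.00. For APCDD1 they were TXNDC2 with 0.00 and PIEZO2 with 0.05.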
